A study of Homo sapiens with 8 samples.

Results

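The antiviral interferon-stimulated effector genes are a list of 51 genes. Many of their products sense viral RNA or DNA, degrade or sequester it, or block virus entry, assembly and release. The genes were taken by symbol from the table of gene rows, which names 31412 genes, and all 51 symbols had a row. Illumina bead arrays were hybridised with RNA of MDA-MB-231-ER-beta cells, a line made from the triple-negative breast cancer line MDA-MB-231 that expresses oestrogen receptor beta (ERβ, encoded by ESR2) when doxycycline is given. All cultures, controls included, received 100 ng/ml doxycycline in medium with charcoal-stripped serum, which is low in steroid hormones. They were then kept for 5 days with ethanol vehicle (3 cultures) or with 1 nM 17-beta estradiol (3 cultures), and a second RNA sample of vehicle culture 3 and of estradiol culture 1 brought the arrays to 8. No culture went without doxycycline, so an effect of estradiol that needs ERβ cannot be told apart from one that does not, and the labels do not say whether the line is 1 clone. A culture is a whole dish, so more transcript per cell and more cells that express it cannot be told apart. No separate passage or day is stated for the cultures, and the spread behind each p-value is that between dishes, which may be technical.

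Interferons are secreted proteins that bind receptors on the cell surface and activate the kinases JAK1 and TYK2. These phosphorylate STAT proteins, which join IRF9 in the complex ISGF3, and ISGF3 binds the interferon-stimulated response element (ISRE) in the promoters of the effector genes. Many effector genes can also be driven by IRF1 or IRF3, or by unphosphorylated STAT proteins, without a new interferon signal. In breast cancer cell lines, a raised basal level of these genes has been described as an interferon-related signature.

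The promoter letters around the ISRE are shown for 7 members because they carry the motif that the group is known for. They include 5 genes that rose with estradiol (ISG15, ISG20, IFIT1, HERC5 and IFI6) and, for contrast, 2 that did not pass the test (BST2 and IFIT5). Each stretch holds the 150 bases before the gene start in RefSeq (build GRCh38.p14), written 5′ to 3′ on the strand of the gene. Capitals mark each match of GAAANNGAAA, the ISRE core used here, or of its reverse complement TTTCNNTTTC, and overlapping matches run together.
ISG15: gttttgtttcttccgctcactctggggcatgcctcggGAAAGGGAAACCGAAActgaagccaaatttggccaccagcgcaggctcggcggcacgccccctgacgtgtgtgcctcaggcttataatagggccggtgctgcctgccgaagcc
ISG20: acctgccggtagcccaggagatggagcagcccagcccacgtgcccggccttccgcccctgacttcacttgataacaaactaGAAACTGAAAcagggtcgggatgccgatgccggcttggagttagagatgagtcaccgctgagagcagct
IFIT1: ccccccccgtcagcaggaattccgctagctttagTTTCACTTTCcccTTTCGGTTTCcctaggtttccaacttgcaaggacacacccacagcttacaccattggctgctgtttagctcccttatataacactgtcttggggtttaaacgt
HERC5: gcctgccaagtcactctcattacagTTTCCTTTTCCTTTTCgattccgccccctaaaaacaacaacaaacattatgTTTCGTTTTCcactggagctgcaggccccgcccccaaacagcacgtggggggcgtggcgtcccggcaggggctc
IFI6: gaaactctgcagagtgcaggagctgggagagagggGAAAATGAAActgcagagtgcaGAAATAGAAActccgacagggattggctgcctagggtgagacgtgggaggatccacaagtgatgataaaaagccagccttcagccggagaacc
BST2: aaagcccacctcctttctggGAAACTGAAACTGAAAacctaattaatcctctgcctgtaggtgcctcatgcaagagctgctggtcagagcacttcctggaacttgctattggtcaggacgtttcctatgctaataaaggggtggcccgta
IFIT5: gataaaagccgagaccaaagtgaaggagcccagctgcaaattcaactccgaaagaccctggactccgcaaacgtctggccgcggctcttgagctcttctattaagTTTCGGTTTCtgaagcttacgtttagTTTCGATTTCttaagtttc
The ISG15 stretch lies at chr1:1013347-1013496 on the plus strand and that of ISG20 at chr15:88638866-88639015 on the plus strand. The IFIT1 stretch lies at chr10:89392473-89392622 and the HERC5 stretch at chr4:88456969-88457118, both on the plus strand. The stretch of IFI6 lies at chr1:27672193-27672342 on the minus strand, that of BST2 at chr19:17405631-17405780 on the minus strand, and that of IFIT5 at chr10:89414418-89414567 on the plus strand. In ISG15, HERC5 and BST2, 2 matches overlap by 4 bases, so the same arrangement stood before genes that rose and before one that did not pass.

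With estradiol, 31 of the 44 tested members were higher, 0 were lower and 13 did not pass the test (limma, adjusted p under 0.05). All 44 had a positive estimate, so none was lower at an unadjusted p under 0.05 either. The largest rises were those of ISG20, an exonuclease that degrades RNA (4.53-fold), and MX1, a dynamin-like GTPase that blocks viral nucleocapsids (4.26-fold). Of all 11191 rows tested, 27.7% were called, 13.6% higher and 14.2% lower, against 70.5% of the tested members. At least a 2-fold rise was called for 20 of the 44, or 45.5%, against 2.83% of all rows. The median log2 change was 0.87 over the tested members and -0.02 over all tested rows. The members were chosen with earlier results of these data known, so these contrasts are a description and not a test of the group.

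Rows entered the test when 3 or more of the 8 arrays gave a detection p below 0.01, and 7 members were left out by this filter. A row can pass through the treatment in which it is high, and in OAS1, OAS2, PARP9 and SAMD9L the estradiol arrays alone, and not the vehicle arrays alone, reached 3. OAS1 was detected on 0 vehicle arrays. Among the 36 members detected on all 8 arrays, where this cannot happen, 25 were higher and 11 did not pass, and their median log2 change was 0.87. That share of 69.4% compares with 12.8% higher among the 8655 rows of the whole table detected on all 8 arrays, whose median was -0.03.

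**Figure D1:**
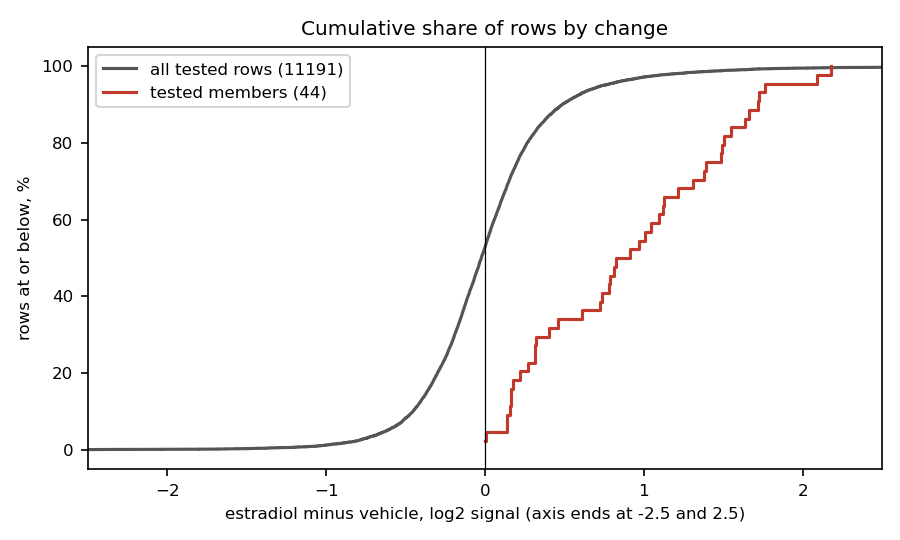
Cumulative share of rows (y axis, percent) at or below each change (x axis, estradiol minus vehicle on the log2 scale) for the 44 tested members (red) and all 11191 tested rows (grey). The members' curve starts at 0 and lies to the right of that of all rows, with medians of 0.87 and -0.02; the 7 members that were not tested are not drawn.

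The mean over the members was higher in each estradiol culture than in any vehicle culture. The mean log2 signal over the tested members was 8.08 in vehicle culture 1, 8.08 in culture 2 and 8.09 in culture 3, and 8.94, 9.00 and 9.03 in estradiol cultures 1 to 3. In 35 of the 44 the 3 estradiol cultures all lay above the 3 vehicle cultures, or 79.5%, against 19.8% of all rows. Over all rows 42.8% had treatments that did not overlap in either direction. Taken array by array, the 4 estradiol arrays lay above the 4 vehicle arrays for 29 members, or 65.9%, against 13.9% of all rows.

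The arrays lay on 2 chips, A with 3 arrays and B with 5, and each chip held both treatments. Within chip A alone, where 1 estradiol array stood against 2 vehicle arrays and was assumed to vary like them, 16 members were higher and the median change was 0.91. That was 36.4% of the tested members, against 2.51% of all rows. Within chip B alone 31 members were higher, with a median change of 0.97, or 70.5% against 11.3% of all rows, and 29 of these were among the 31 called over both chips. All 31 called members had a positive change within each chip. Vehicle culture 3 and estradiol culture 1 had an array on each chip, and the 31 were called from the arrays of both chips. The chips are thus not independent, and neither the shared sign nor the overlap of 29 is a separate test. The size of the median depended on the background correction, and it fell to 0.24, with 28 members higher, where all rows set the background.

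**Figure D2:**
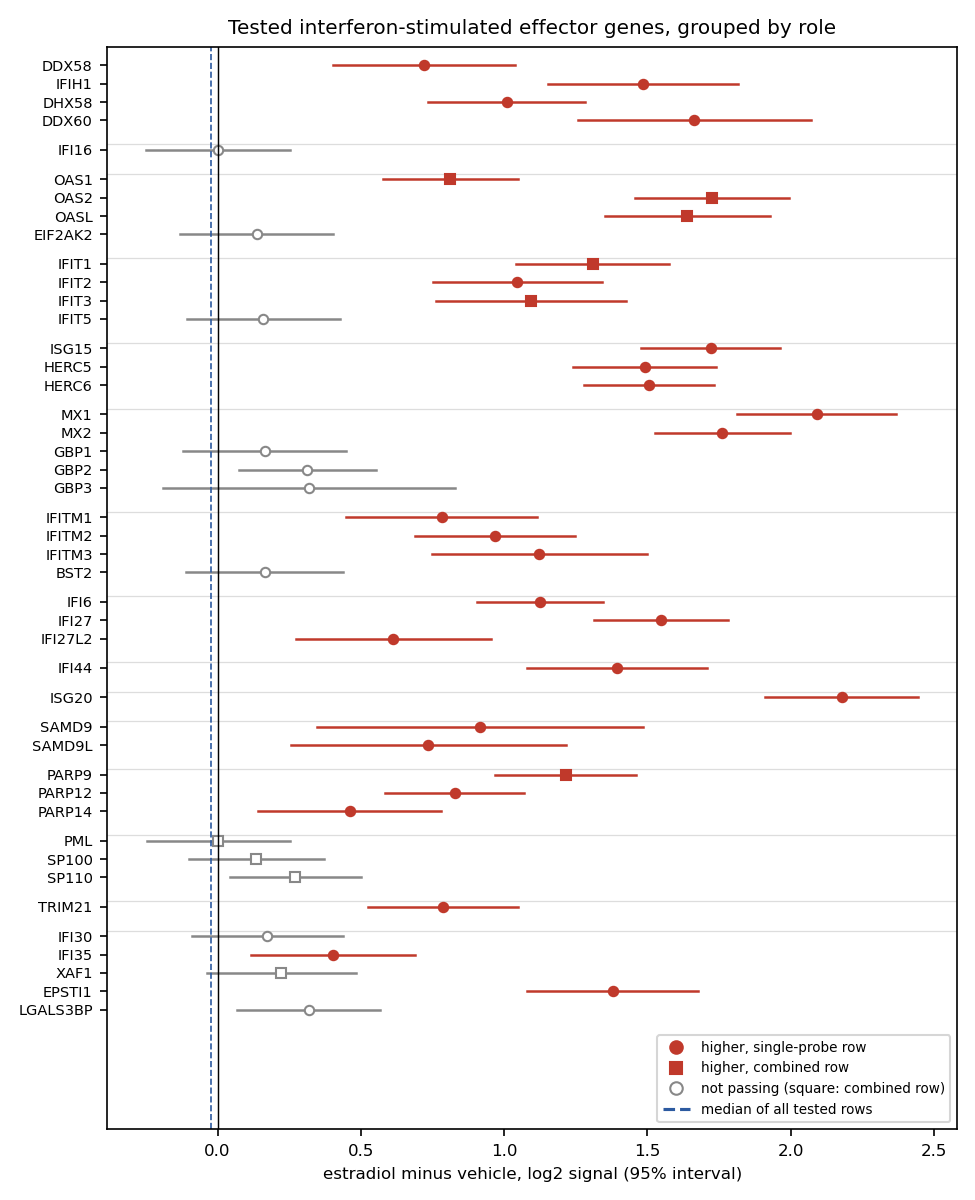
Change of each tested member (x axis, estradiol minus vehicle on the log2 scale) with its 95% interval, grouped by role. Filled red symbols passed the test and open grey symbols did not; circles are rows of a single probe, squares rows that combine several probes, and the dashed line is the median of all tested rows at -0.02.

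The 4 genes for helicase sensors of viral RNA and their cofactors were all called higher. The RNA-activated kinase gene EIF2AK2, given below, did not pass. IFIH1 encodes MDA5, a helicase that detects long double-stranded RNA, and stood at a log2 signal of 7.73, 7.74 and 7.74 in the vehicle cultures and 8.87, 9.49 and 9.31 in the estradiol cultures. Its change of 1.48 (SE 0.149) had an adjusted p of 4.89e-05 (limma). The vehicle cultures lay within a narrow band, and estradiol culture 1 was the lowest of its treatment. DDX60, a helicase described as a cofactor of these sensors, was at 6.88, 6.88 and 7.14 against 8.20, 8.68 and 9.01. It rose by 1.66 (SE 0.183, adjusted p = 8.99e-05, limma), with estradiol culture 1 again lowest and no overlap between the treatments. Within chip A its change was 0.90 and did not pass (adjusted p = 0.172, limma, against 3.12e-07 to 0.172 over the alternatives). DHX58, which encodes LGP2, a helicase that tunes MDA5 and RIG-I, rose by 1.01, and DDX58, now RIGI, the sensor of RNA with a free triphosphate end, rose by 0.72. Within chip A, with 1 estradiol array, the change was 0.87 for DHX58 and 0.59 for DDX58. The DDX58 call was lost where all rows set the background, at 0.23. The DNA sensor gene IFI16 did not pass. It was at 8.12, 8.37 and 8.35 in vehicle and 8.23, 8.25 and 8.37 with estradiol, a difference of 0.00 with a 95% interval of -0.25 to 0.25.

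The oligoadenylate synthetases make the second messenger that activates the ribonuclease RNase L, and all 4 of their rows combine several probes. OAS2 was at 5.94, 6.28 and 6.20 in the vehicle cultures and 7.93, 7.78 and 7.89 in the estradiol cultures. It rose by 1.73 (SE 0.121, adjusted p = 3.27e-06, limma), with 2 of 4 vehicle arrays and all 4 estradiol arrays detecting it. OASL, a relative without synthetase activity that enhances RIG-I signalling, was at 6.88, 7.10 and 7.24 against 8.89, 8.62 and 8.62. Its rise was 1.64 (SE 0.130, adjusted p = 8.60e-06, limma), and the lowest estradiol culture was well above the highest vehicle culture.

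OAS1 was at 4.74, 4.73 and 4.72 in vehicle, where no array detected it, and at 5.65, 5.43 and 5.55 with estradiol. Its row was called higher (adjusted p = 0.000289, limma), in a test of the estradiol against the vehicle values. Against the lowest detected single-probe signal of each array OAS1 was at least 1.18-fold higher. This bound was not itself tested and is nominal, since the floor comes from rows of 1 probe. OAS3 was detected on 0 arrays by its deposited p-values and was not tested, yet its vehicle cultures at 5.35, 5.53 and 5.59 lay below its estradiol cultures at 6.71, 6.97 and 6.65. No fold is given for it. EIF2AK2, which encodes the RNA-activated kinase PKR, did not pass at 0.14 (95% interval -0.13 to 0.40), and its cultures overlapped between the treatments.

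Of the IFIT genes, whose products bind viral RNA that lacks the host cap structure, 3 of 4 rose. IFIT1 was at 9.38, 9.53 and 9.76 in vehicle and 10.90, 10.85 and 10.85 with estradiol, a rise of 1.31. IFIT3 rose by 1.09 and IFIT2 by 1.05. IFIT5 was at 5.65, 5.67 and 5.86 against 5.76, 5.84 and 6.06. Its difference of 0.16 did not pass (95% interval -0.11 to 0.43). These values lie not far above the lowest detected single-probe signal of 5.14 to 5.39, where the offset understates changes. The promoter window of IFIT5 held 3 ISRE core matches, 2 of them within the stretch shown above. By gene order IFIT1 and IFIT5 are next to each other, and so are IFIT2 and IFIT3.

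ISG15, the gene HERC5 for an enzyme that attaches it to other proteins, and the neighbouring gene HERC6 also rose. ISG15, a ubiquitin-like modifier, was at 12.32, 12.09 and 12.33 in the vehicle cultures and 13.99, 13.94 and 13.96 in the estradiol cultures. That was a rise of 1.72 (SE 0.110, adjusted p = 1.63e-06, limma), and the estradiol cultures differed among themselves by far less than from vehicle. HERC5, the main human ligase for ISG15, was at 10.55, 10.80 and 10.63 against 12.07, 12.23 and 12.16, a rise of 1.49 (SE 0.113, adjusted p = 5.94e-06, limma). Its neighbour HERC6 was at 7.69, 7.62 and 7.77 against 9.23, 9.17 and 9.20, a rise of 1.51 (SE 0.103, adjusted p = 2.65e-06, limma). Neither overlapped between the treatments.

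The ISG15 enzyme genes UBE2L6 and USP18 were not tested. UBE2L6, the conjugating enzyme, has a combined row that was detected on 1 vehicle and 1 estradiol array and stood at 9.16, 9.40 and 9.20 against 9.65, 9.31 and 9.38, with overlap. USP18, which removes ISG15 and dampens the interferon receptor, was detected on 0 vehicle and 2 estradiol arrays. It was at 4.59, 4.48 and 4.57 against 5.23, 5.36 and 5.21, values close to the lowest detected single-probe signal of 5.14 to 5.39, so no bound on its fold is given.

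**Figure D3:**
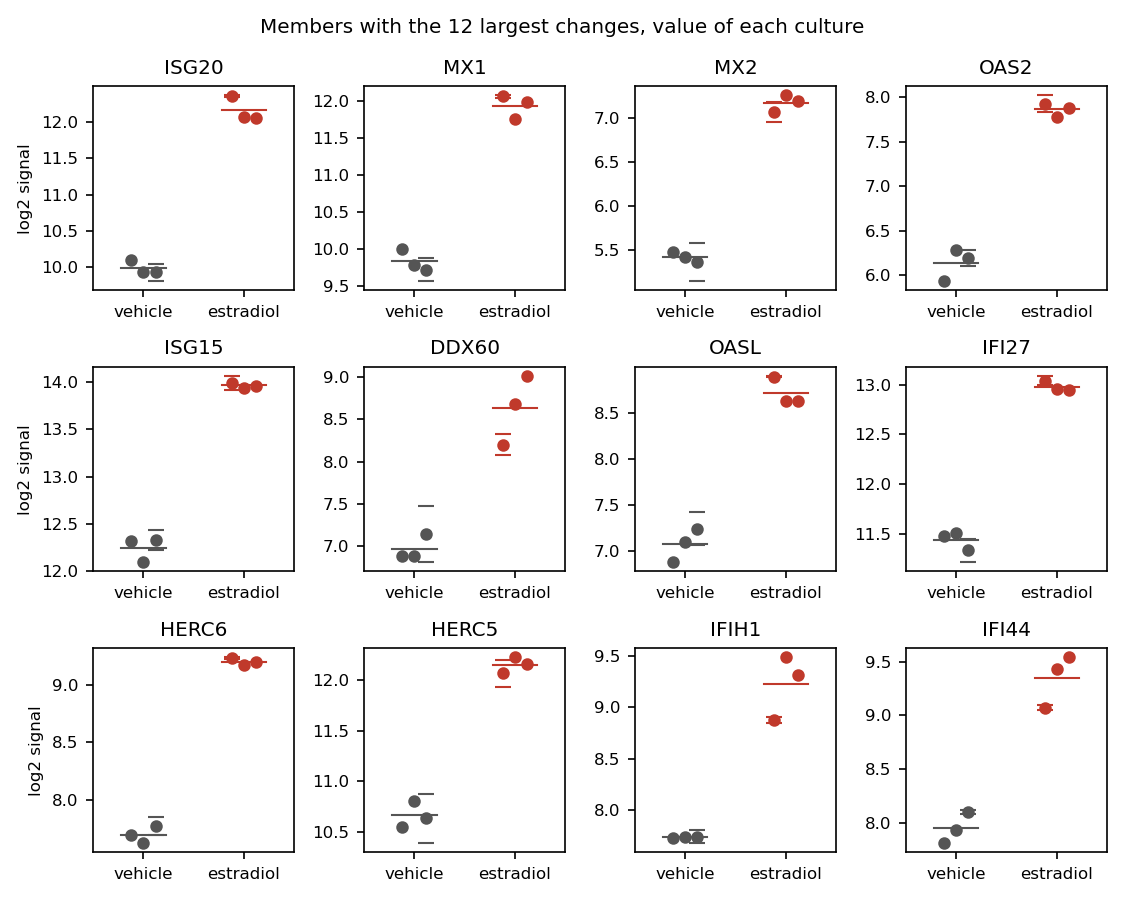
Log2 signal (y axis) of the 12 members with the largest changes in each vehicle culture (grey points) and estradiol culture (red points), with the mean of each treatment as a line. Short dashes mark the 2 arrays of vehicle culture 3 and of estradiol culture 1, and no culture of the treatments overlaps in any panel; the y axes do not start at 0 and differ between panels.

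Among the GTPases, both MX genes rose and the 3 guanylate-binding proteins did not pass. MX1 was at 10.00, 9.79 and 9.73 in vehicle and 12.06, 11.75 and 11.98 with estradiol, a rise of 2.09 (SE 0.125, adjusted p = 9.98e-07, limma). MX2, which restricts retroviruses at the nuclear pore, was at 5.47, 5.42 and 5.36 against 7.07, 7.26 and 7.20. Its rise of 1.76 (SE 0.106, adjusted p = 1.09e-06, limma) started from the lowest detectable level, with 3 of 4 vehicle arrays detecting it, and it shrank to 0.15 where all rows set the background. The guanylate-binding proteins act on membranes around intracellular pathogens and respond above all to interferon gamma. GBP1 was at 0.16 (95% interval -0.12 to 0.45) and GBP3 at 0.32 (-0.19 to 0.83), each with overlapping cultures. GBP3 was detected on 1 vehicle and 2 estradiol arrays, with values around the lowest detected single-probe signal of 5.14 to 5.39. GBP2 was at 10.56, 10.39 and 10.41 against 10.67, 10.82 and 10.81, without overlap, and its difference of 0.31 had an adjusted p of 0.0528 (limma; 0.000659 to 0.993 over the alternatives). It stayed short of the threshold in 8 of 22 alternatives and passed in the others.

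The IFITM proteins sit in endosomal and surface membranes and hinder virus fusion. IFITM3 was at 12.51, 11.76 and 11.98 in vehicle and 13.22, 13.24 and 13.15 with estradiol, and rose by 1.12 (SE 0.170). IFITM2 rose by 0.97 and IFITM1 by 0.78. The 3 genes are neighbours and similar in sequence, and signal shared between them cannot be set aside without the probe sequences, which were not used. In IFITM1 the arrays of vehicle culture 3 were at 8.80 and 7.87 for its 2 RNA samples. BST2, or tetherin, which holds budding virus at the cell surface, was at 9.69, 10.09 and 9.91 against 10.13, 10.04 and 10.01 and did not pass (0.16, 95% interval -0.11 to 0.44). Its promoter window held 2 ISRE core matches.

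IFI27, a small mitochondrial and nuclear-envelope protein gene, was at 11.47, 11.51 and 11.33 in vehicle and 13.04, 12.96 and 12.94 with estradiol. It rose by 1.55 (SE 0.106, adjusted p = 2.72e-06, limma), with the treatments far apart. Its relative IFI6 was at 8.87, 8.93 and 8.87 against 10.00, 10.02 and 10.02 and rose by 1.13 (SE 0.0993), among the tightest sets of values in the group. The neighbour IFI27L2 rose by 0.61 (SE 0.153), but the 2 arrays of vehicle culture 3 were at 9.74 and 8.60, and the call was lost without that culture. IFI44 was at 7.82, 7.94 and 8.10 against 9.07, 9.43 and 9.54, a rise of 1.39 (SE 0.141, adjusted p = 5.15e-05, limma). Its neighbour IFI44L was detected on 0 arrays, and its values of 4.46, 4.52 and 4.40 against 4.68, 5.01 and 5.19 lie under the detection floor.

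ISG20 was at 10.09, 9.93 and 9.93 in the vehicle cultures and 12.36, 12.07 and 12.06 in the estradiol cultures. Its change of 2.18 (SE 0.121, adjusted p = 6.00e-07, limma) was the largest of the group, and no culture of either treatment came near the other. The neighbouring genes RSAD2, which encodes viperin, and CMPK2, a mitochondrial nucleotide kinase gene that supplies it, were detected on 0 arrays. RSAD2 stood at 4.69, 4.66 and 4.86 against 4.96, 4.85 and 4.64 and CMPK2 at 4.59, 4.65 and 4.45 against 4.59, 4.52 and 4.49. Neither can be called present or absent in this measurement.

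Of the poly-ADP-ribose polymerase relatives all 3 rose. PARP9, a combined row detected on 1 vehicle and 4 estradiol arrays, was at 5.25, 5.51 and 5.46 against 6.62, 6.64 and 6.61, a rise of 1.21 (SE 0.111). Its vehicle level was thus near the detection floor, and the change shrank to 0.08 where all rows set the background. PARP12, which curbs viral translation, rose by 0.83. PARP14 rose by 0.46 and lost its call under 11 of 22 alternatives, among them the removal of either of 2 vehicle cultures (1 or 3) or of any 1 estradiol culture. The SAMD9 pair, which inhibits protein synthesis, was the most variable set. SAMD9 was at 6.79, 6.22 and 6.80 in vehicle and 6.88, 7.67 and 8.01 with estradiol, so that estradiol culture 1 nearly touched the vehicle cultures while the others stood apart. Its change was 0.92 (SE 0.257, adjusted p = 0.0227, limma), and SAMD9L rose by 0.74 (SE 0.217, adjusted p = 0.0282, limma). The 2 arrays of estradiol culture 1 gave 6.04 and 4.81 for SAMD9L. Both calls were lost without estradiol culture 2 or 3, and each also without a vehicle culture: SAMD9 without culture 2, and SAMD9L without 1 or 3. With the chip as a block neither passed, at 0.43 for SAMD9 (adjusted p = 0.136, limma) and 0.28 for SAMD9L (adjusted p = 0.326, limma). Within chips, SAMD9 was at 0.10 in A and 1.06 in B, and SAMD9L at 0.97 in A and 0.26 in B, of which only the value of SAMD9 in B passed.

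None of the tested genes of the PML nuclear bodies passed, and all 3 are combined rows. PML, their scaffold, was at 4.99, 4.77 and 4.83 in vehicle and 4.84, 4.99 and 4.78 with estradiol. These values lie under the lowest detected single-probe signal of 5.14 to 5.39, although its row was detected on 5 of the 8 arrays. Its difference of 0.00 (95% interval -0.25 to 0.25) was thus taken near background and does not show that PML was unchanged. SP100 differed by 0.14 (95% interval -0.10 to 0.37) and SP110 by 0.27 (0.04 to 0.50, adjusted p = 0.0745, limma). TRIM21, a receptor for antibody-coated virus inside cells, rose by 0.79 (SE 0.118), and TRIM22 was detected on 0 arrays. Of the remaining members, EPSTI1 was at 6.35, 6.71 and 6.30 against 7.87, 7.69 and 7.94 and rose by 1.38 (SE 0.134). IFI35 rose by 0.40 and lost its call under 10 of 22 alternatives, among them the removal of any 1 culture other than vehicle culture 1. The lysosomal thiol reductase gene IFI30 (0.17), the pro-apoptotic gene XAF1 (0.22) and LGALS3BP (0.32, adjusted p = 0.0586, limma) did not pass. LGALS3BP passed under 11 of 22 alternatives, with adjusted p from 0.00176 to 0.763 (limma).

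Of the 51 rows 39 hold a single probe and 12 combine several. The combined rows are OAS1, OAS2, OAS3, OASL, IFIT1, IFIT3, UBE2L6, PARP9, PML, SP100, SP110 and XAF1. Among tested members, 25 of 34 single-probe rows (73.5%) and 6 of 10 combined rows (60%) were higher. The median change of the single-probe members alone was 0.87. In a combined row the probes may not agree, and their separate values were not analysed here.

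A window in the promoter table was found for 41 of the 51 members, and 28 of them held the ISRE core in at least 1 of their windows of 300 bases (250 before to 50 after the start). That is 68.3% of these members, against 4.38% of the 27305 genes in the table. By window the shares were 58.2% of 55 and 3.57% of 35116. The core was present in 19 of 25 members that rose with a window, in 6 of 11 that did not pass and in 3 of 5 that were not tested. The letters TTCNNNGAA, the core of the site that STAT dimers bind, were in 26.8% of the members and 9.38% of all genes, and they overlap an ISRE core match in the windows of BST2, EPSTI1, IFI27, IFITM1 and MX1. The full oestrogen response element GGTCANNNTGACC was in 0 of the 41 and in 0.0732% of all genes. Both of these motifs read the same on either strand, and a match is a run of letters and not a measured binding site.

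By gene order, 25 members form 11 runs of neighbouring members. In 8 runs every tested member rose, as in the pairs of MX and HERC genes and the 3 IFITM genes. The guanylate-binding genes GBP3, GBP1 and GBP2 form a run in which none passed, IFIT1 with IFIT5 is a mixed run, and neither CMPK2 nor RSAD2 was tested.

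Of 55 other genes of interferon sensing and signalling 24 were tested, of which 6 rose, 2 fell and 16 did not pass, with a median log2 change of 0.18. Over all tested rows 27.7% were called, 13.6% higher and 14.2% lower, and the count for this list is not read as different from that. All 21 interferon genes were detected on 0 arrays, some of them in combined rows, which does not show that they were absent. Of the ISGF3 subunit genes, IRF9 was at 10.11, 10.11 and 10.04 against 11.11, 11.22 and 11.11 and rose by 1.06 (SE 0.102). STAT2 was at 9.73, 9.70 and 9.63 against 9.93, 9.94 and 10.04, without overlap, and its difference of 0.28 had an adjusted p of 0.0641 (limma). The kinase gene JAK1 rose by 0.98 (SE 0.107) and IRF1 by 0.48, while TYK2 was at 0.20 and did not pass.

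The receptor genes IFNAR1 (0.03), IFNGR1 (0.17) and IFNGR2 (0.17) did not pass, IFNAR2 was not tested, and IL10RB, a subunit shared by the interferon lambda receptor, rose by 0.34. The lambda receptor gene IFNLR1, a combined row, differed by -0.25 and did not pass (adjusted p = 0.148, limma). Its estradiol cultures lay below its vehicle cultures. In the DNA-sensing branch the 2 key genes moved in opposite directions. TMEM173, now STING1, the adaptor that activates TBK1, was at 8.87, 8.79 and 8.91 against 10.10, 9.98 and 9.95 and rose by 1.16 (SE 0.105). MB21D1, now CGAS, the sensor that feeds it, fell by 0.33 (SE 0.105), and IKBKE, a kinase related to TBK1, fell by 0.56 (SE 0.129). The RNA-sensor adaptor MAVS (0.27) and the ligase gene TRIM25 (0.15) did not pass. The editing enzyme gene ADAR was at 9.03, 9.15 and 8.93 in vehicle and 9.51, 9.41 and 9.24 with estradiol. Its combined row was detected on 2 of the 8 arrays and was not tested. Nor was IRF7, a combined row detected on 0 arrays, whose signal was 7.24, 7.21 and 7.18 in vehicle and 8.13, 7.67 and 7.80 with estradiol.

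**Figure D4:**
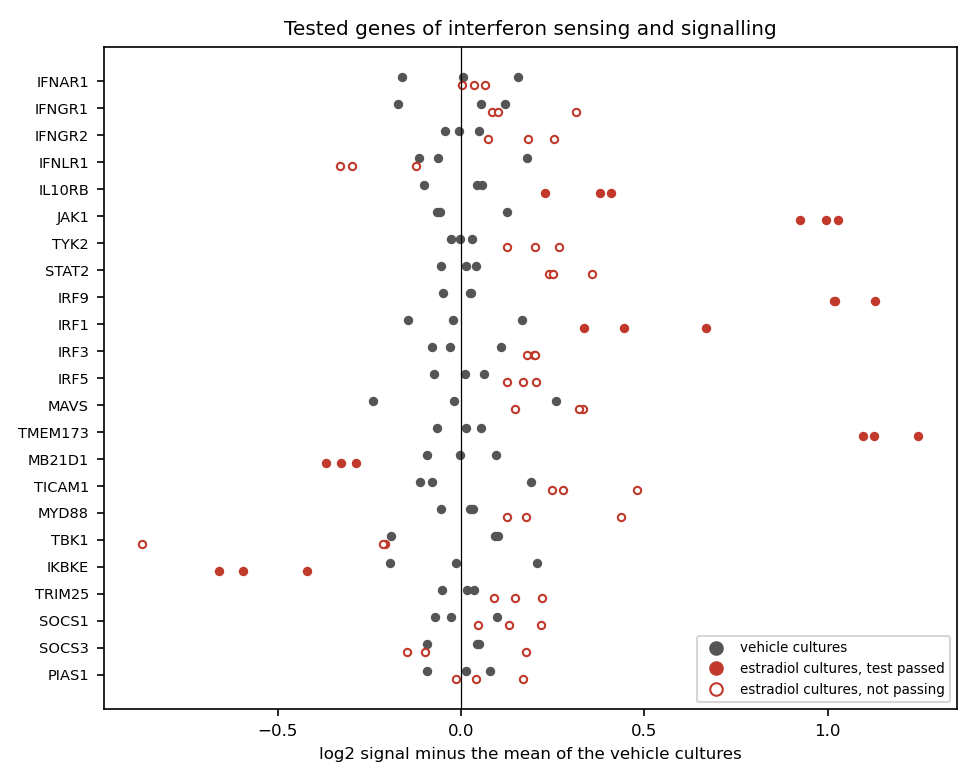
Log2 signal of the tested genes of interferon sensing and signalling, 1 gene not shown, in each culture, as the difference from the vehicle mean of the gene (x axis). Grey points are vehicle cultures, filled red points estradiol cultures of genes that passed the test and open red points those that did not; TMEM173, IRF9 and JAK1 lie farthest to the right, and IKBKE and MB21D1 are the genes that fell.

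Between 10172 and 11123 rows were detected per array, and 39 to 46 of the 51 members. All 8 arrays detected ESR2, which fell by 1.17 from 11.46, 11.14 and 11.43 in vehicle to 10.23, 10.11 and 10.18 with estradiol. Of the markers of the labelled line, VIM, CD44, KRT8, KRT18, ANXA1 and CAV1 were detected on all 8 arrays, ESR1 and PGR on 0, and ERBB2, a combined row, on 1. The ERBB2 signal was nevertheless 7.92, 7.81 and 7.69 in vehicle and 7.86, 7.82 and 7.85 with estradiol. These values exceed the lowest detected single-probe signal of 5.14 to 5.39, so the detection count does not show ERBB2 to be absent. Among the line markers detected on all 8 arrays, KRT8 rose by 1.63, CAV1 by 0.92 and VIM by 0.68. CD44, KRT18 and ANXA1 did not pass. Of 8 leukocyte genes, PTPRC, CD3E, IL3RA and CLEC4C were detected on 0 arrays. CD68, which other cells can also express, rose by 0.41, LYZ was called higher and was detected on 0 vehicle and 4 estradiol arrays, and CD14 did not pass. Their part in the members' rise was not tested. Of 5 endothelial and fibroblast genes 4 were detected on 0 arrays and PDGFRB fell by 0.48. The repeat array of vehicle culture 3 differed from the first array of that culture by a median of 0.03 over the tested members and 0.05 over all tested rows. Without it, an alternative chosen after seeing the data, 30 members were higher and the median change was 0.90.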

How the data were processed

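Total RNA was extracted with Trizol and turned into biotinylated cRNA, per the labels' protocols. The deposited table holds an intensity per gene row and array, with its detection p-value, and is not normalized between arrays, per the file headers. Of 31412 named rows, 24130 had detection p-values that came out whole on every array when multiplied by 770 (within 0.002) and were taken as single-probe rows; the other 7282 were taken to combine probes, and 3266 blank rows were left out. A further table of 31405 rows holds intensities normalized by the authors; the labels name no method.

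Signals were background-corrected with normexp (limma 3.58.1, R 4.3.3), with the background read from the detection p-values of single-probe rows. An offset of 16 was added, and values were put on the log2 scale and quantile normalized. The offset understates changes of dim genes. Repeat arrays were averaged with the culture that their title names; for the estradiol repeat this is culture 1, whereas the series text says replicate 3. Rows detected (p under 0.01) on at least 3 arrays, 11191 in all, were fitted with lmFit and eBayes over 3 and 3 cultures, and p-values were adjusted by Benjamini and Hochberg with a threshold of 0.05. Intervals are 95%. The number of arrays limits the precision. When 200 of 11191 simulated rows were changed in this comparison, 46.2% of changes of 0.5 and 100% of changes of 1 and 2 (log2) were recovered. In the real data a far larger share of rows, 27.7%, was called. Recovery at such a share was not simulated and may differ. Background inferred from all rows gave a background SD of 292 to 397 in place of 7.61 to 11.6, since detection p-values of combined rows do not follow their signals.

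The members, role groups, pathway genes and markers were chosen with earlier results of these data known. Full culture values are given for the 12 members with the largest called changes, for members detected in 1 treatment only, and for others chosen after their values were seen. All list entries matched a row, 6 of them by an older name in the RefSeq gene table (GRCh38.p14), from which promoter sequences also come. Alternatives covered the repeat arrays, the replicate number and chip as blocks, each chip alone, background, offset, normalization, filter, variance model, array weights and each culture left out. The numbers of the replicates were not taken to pair cultures: same-numbered cultures deviated together at r = 0.134, 0.134 and -0.033 across genes. Values of some listed genes are not reported here.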

Additional observations from a re-analysis of the deposited data

How the results depend on the processing

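The members' count of rises stayed between 26 and 38 in all alternatives other than chip A alone (16) and single-probe members alone (25 of 34), and 0 members were lower in any. Of the 31 called members 16 kept the call in each of the 22 alternative fits that tested them, and all 31 had a positive change in each. Of the 13 that did not pass, 5 were called in none. Leaving out 1 culture gave 27 to 31 rises, 0 falls and a median change of 0.794 to 0.968, and 1957 to 3387 rows called in all; the lowest counts were 1957 without vehicle culture 3 and 2025 without estradiol culture 3. The members' median moved to 0.714 without background correction, 0.716 in the values normalized by the authors and 0.243 with the background from all rows. Centring each array on its median moved the median of all tested rows from -0.0232 to 0.143 and that of the members to 1.02, so that the difference between them was 0.873 in place of 0.895, and 79.2% of all calls were rises in place of 48.9%. The rows called over the whole table numbered 5072 with the chip as a block, 6506 with array weights and 410 within chip A. The chip fit estimated a negative correlation between arrays of a culture (-0.569) and so gave repeats more weight than independent arrays. DDX60 (0.90, adjusted p = 0.172) and OAS1 (0.89, adjusted p = 0.12) did not pass within chip A, where 3 arrays were fitted. With the replicate number as a block 3266 rows were called, and 31 members were higher and 0 lower. In cultures 1 and 2 each vehicle culture correlated best with the estradiol culture of its own number, and in culture 3 it did not. Unless stated, the cause was not tested.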
